A study of Mus musculus with 2 samples.

Results

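The genes described here are the subunits of the transcription factor NF-kB (Nfkb1, Nfkb2, Rela, Relb and Rel) and a group of its inhibitors and feedback regulators (Nfkbia, Nfkbiz, Tnfaip3, Bcl3 and Zfp36). They were taken by name, with no threshold on a measured value but with earlier results of these data known, and all 10 were found among the 20330 gene identifiers of the table. RNA sequencing was done on adipose-tissue macrophages (ATM), the macrophages that live in or enter fat, to look for transcripts that bear on the heat made by ATM without HIF-1α, and the comparison it allows is that of KO with WT ATM. C57BL/6 mice were kept on high-fat diet for 12 weeks, and cells of their visceral fat were sorted on CD11b and F4/80, a macrophage surface antigen. The WT mice were hMRP8cre-;Hif-1αfl/fl;ApoE-/- and the KO mice were hMRP8cre+;Hif-1αfl/fl;ApoE-/-, so by their labels mice of both genotypes were ApoE-/- and carried floxed alleles of Hif1a. In the KO mice Cre is driven by the promoter of human MRP8 (S100A8), which is active in myeloid progenitors, monocytes and neutrophils and is not restricted to macrophages. There was 1 library of each genotype and no replicate, so no difference below has a test or a replicate error, and the labels do not give the sex of the mice or say if several were pooled for a library. By the study's methods the diet was begun at 4 weeks of age.

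NF-kB proteins act as pairs. RelA, c-Rel (encoded by Rel) and RelB carry a transactivation domain, whereas Nfkb1 and Nfkb2 encode the precursors p105 and p100, which are cut to the DNA-binding proteins p50 and p52. In resting cells IkB proteins hold the pairs in the cytoplasm. Signals from toll-like, IL-1 and TNF receptors activate the IKK kinases, which mark IkBα (encoded by Nfkbia) for destruction, while receptors such as CD40 and the lymphotoxin-β receptor act through the kinase NIK (Map3k14) on p100 and RelB. Many of the genes that NF-kB switches on encode its own inhibitors, and in macrophages this circuit shapes the output of cytokines and chemokines.

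Several genes of this circuit are known to be switched on by NF-kB itself, so the stretches near their starts that hold a match to its binding site are shown. Promoter windows of 300 bases, from 250 before to 50 after an annotated transcription start, were taken from RefSeq (GRCm38.p6) and were found for 7 of the 10 genes, namely Nfkb2, Rela, Rel, Nfkbia, Tnfaip3, Bcl3 and Zfp36. Each was searched on both strands for the 10-base kB consensus. Nfkb1, Relb and Nfkbiz had no window. Each sequence below is written 5′ to 3′ on the strand of its gene, with every base of a consensus match in capitals. Positions are counted from the start, with -1 as the last base before it and no position 0.
Nfkb2, first start, -48 to -19: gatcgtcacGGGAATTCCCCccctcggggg
Nfkb2, second start, -40 to 22: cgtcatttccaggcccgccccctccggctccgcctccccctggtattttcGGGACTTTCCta
Rel, -130 to -1: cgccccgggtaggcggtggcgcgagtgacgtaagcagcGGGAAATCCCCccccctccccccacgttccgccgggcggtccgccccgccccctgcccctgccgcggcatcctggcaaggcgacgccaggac
Nfkbia, -100 to -1: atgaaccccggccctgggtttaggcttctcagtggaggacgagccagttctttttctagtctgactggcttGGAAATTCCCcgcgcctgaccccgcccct
Tnfaip3, -140 to -1: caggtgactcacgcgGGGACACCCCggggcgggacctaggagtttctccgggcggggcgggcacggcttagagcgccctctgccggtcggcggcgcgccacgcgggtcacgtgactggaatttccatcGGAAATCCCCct
Bcl3, -60 to 14: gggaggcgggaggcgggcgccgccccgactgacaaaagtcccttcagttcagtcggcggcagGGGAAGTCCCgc

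The stretch at the first start of Nfkb2 is chr19:46304689-46304718 on the plus strand, within the 5′ UTR of a longer annotated transcript, and that at its second start is chr19:46305655-46305716. The other stretches lie on the minus strand, at chr11:23770970-23771099 (Rel), chr12:55492648-55492747 (Nfkbia), chr10:19015411-19015550 (Tnfaip3) and chr7:19822742-19822815 (Bcl3). The whole stretch of Tnfaip3 lies within the annotated gene (chr10:19000910-19015657), as does that at the second start of Nfkb2. At the first start of Nfkb2, 2 overlapping matches ran from -39 to -29, and a further one from -11 to -2, while the window of the second start held one at 11 to 20 and one at -236 to -227. Rel likewise had 2 overlapping matches, from -92 to -82. Nfkbia had a single match 29 to 20 bases before its start, and Bcl3 a single match just after its start, at 3 to 12. Tnfaip3 had one site at -125 to -116 and one at -12 to -3. A match was thus found in 5 of the 7 genes with a window, against 9.55% of the 27025 genes in the promoter table, and none was found in the windows of Rela and Zfp36. Among the other NF-kB target genes listed, 14 of the 31 with a window held a match. The core of the HIF binding site, ACGTG or GCGTG, was found in 4 of the 7 (Nfkb2, Rel, Tnfaip3 and Zfp36), against 46.7% of all genes. A match describes the letters in the window and does not show that a factor binds there.

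FPKM (fragments per kilobase, scaled to the mapped fragments of a library) summed to 585823 in WT and to 568329 in KO, and the depth estimated from the lowest FPKM values was 5.86e+06 fragments in the WT library against 7.47e+06 in the KO library. The targeted gene, Hif1a, was at 30.4 FPKM in WT against 20.97 FPKM in KO, a ratio of 0.689 with a 95% counting interval of 0.621 to 0.765, so its transcript was lower but still present in the KO library. Apoe, disrupted in both genotypes by the labels, was listed at 94.3 FPKM in WT against 116.5 FPKM in KO. Values per gene do not show whether the floxed exon of Hif1a or the disrupted part of Apoe was lost. Gene coordinates below are those of GRCm38. Differences are given as KO minus WT on the scale of log2(FPKM + 1), with the ratio of the FPKM values beside them. The interval given with a ratio is an exact Clopper-Pearson 95% interval on estimated fragments. It covers only counting error and treats each estimated fragment as a separate molecule. Reads copied by PCR are not separate molecules, so the interval can be too narrow. It says nothing about differences between animals. In bulk RNA, a change in the number of cells of a type and a change in RNA per cell cannot be told apart.

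Transcripts of all 5 subunits were detected in both libraries. Nfkb2 and Relb, whose products p52 and RelB form the pair of the non-canonical route, were higher in KO by about the same factor, and the other subunits stayed within 1.13-fold of WT. Nfkb2 (ENSMUSG00000025225, chr19:46304320-46312385) was at 84.5 FPKM in WT against 124.3 FPKM in KO, a difference of 0.55 and a ratio of 1.47 (interval 1.38 to 1.57). Relb (ENSMUSG00000002983, chr7:19606217-19629438) was at 11.6 FPKM in WT against 18.4 FPKM in KO, a difference of 0.62 and a ratio of 1.58 (interval 1.29 to 1.93). Relb was the least abundant subunit in both libraries and rested on about 150 estimated fragments in WT against 302 in KO, so its ratio has the widest interval of all 10 genes. Nfkb2, by contrast, moved from the third place among the subunits in WT to the first in KO. The exons of Nfkb2 share 299 bases with Psd, a gene on the opposite strand that was at 16.9 FPKM in WT against 29.9 FPKM in KO, and 531 bases with an antisense transcript. No source used here states that strand was used in counting, so reads in these stretches cannot be assigned to one gene.

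Rela, which encodes the main transactivating subunit of the canonical pathway, was level between the libraries. Rela (ENSMUSG00000024927, chr19:5637483-5648130) was at 88.1 FPKM in WT against 88.4 FPKM in KO, a difference of 0.01, and the interval of its ratio ran from 0.914 to 1.10. Rel (ENSMUSG00000020275, chr11:23736847-23770970), which encodes c-Rel, was at 87.7 FPKM in WT against 81.3 FPKM in KO, a difference of -0.11 and a ratio of 0.926 (interval 0.887 to 0.967). Rel was the only one of the 10 genes with a lower value in KO. Nfkb1 (ENSMUSG00000028163, chr3:135584655-135691547), the source of p50, was at 43.0 FPKM in WT against 48.8 FPKM in KO, a difference of 0.18 and a ratio of 1.13 (interval 1.03 to 1.24). The intervals of Rel and Nfkb1 leave out 1 on the counting error of estimated fragments alone. This is not a test and says nothing about the genotypes. Both differences lay between the 5th and 95th percentile of genes of like mean FPKM.

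**Figure D1:**
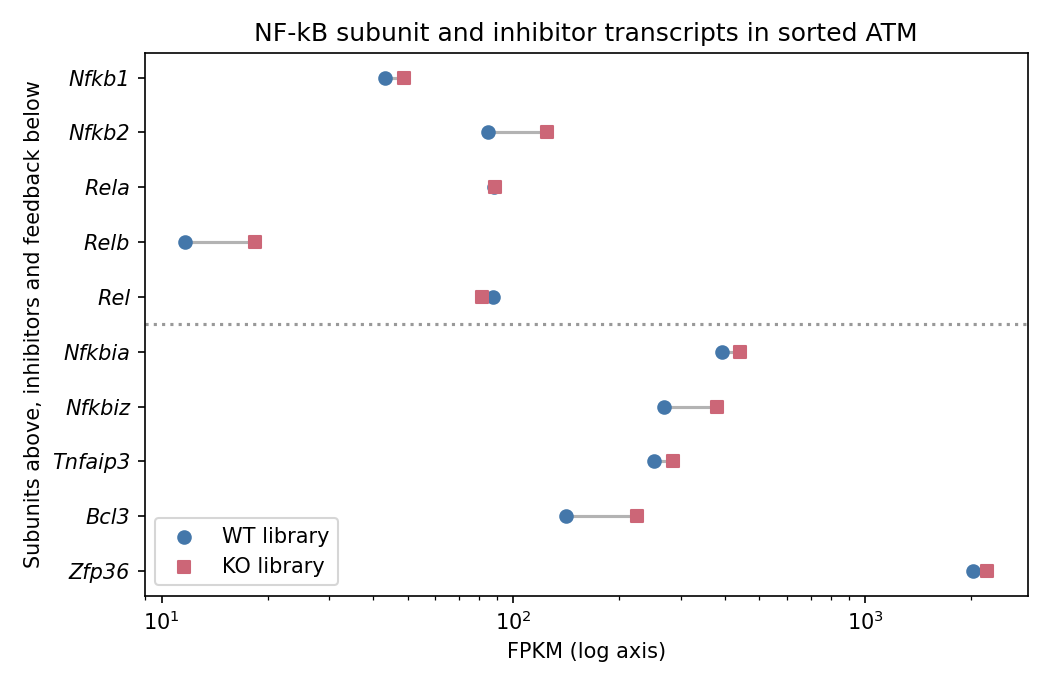
FPKM of each gene in the WT library (circles) and the KO library (squares) on a log axis, subunits above the dotted line and inhibitors and feedback regulators below it. Relb is lowest and Zfp36 highest in both libraries, and the widest gaps are those of Nfkb2, Relb, Nfkbiz and Bcl3.

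The inhibitors and feedback regulators were more abundant than the subunits in both libraries. All 5 had higher values in KO, as did 51.3% of all genes compared. The largest differences were those of Bcl3 and Nfkbiz, both of which encode IkB-like proteins of the nucleus that bind p50 or p52 on DNA and change which target genes are switched on. Bcl3 (ENSMUSG00000053175, chr7:19808462-19822770) was at 141.1 FPKM in WT against 224 FPKM in KO, a difference of 0.67 and a ratio of 1.59 (interval 1.48 to 1.71). Nfkbiz (ENSMUSG00000035356, chr16:55811375-55838899), which encodes IkBζ, was at 268 FPKM in WT against 380 FPKM in KO, a difference of 0.50 and a ratio of 1.42 (interval 1.37 to 1.46). Both were thus higher in KO by a wider margin than Nfkbia, the inhibitor that acts in the cytoplasm. The exons of Bcl3 share 161 bases with an antisense transcript.

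Nfkbia, Tnfaip3 and Zfp36 lay close together in their ratios, all between 1.10 and 1.13. Nfkbia (ENSMUSG00000021025, chr12:55489410-55492647), which encodes IkBα, was at 392 FPKM in WT against 441 FPKM in KO, a difference of 0.17 and a ratio of 1.13 (interval 1.08 to 1.17). Tnfaip3 (ENSMUSG00000019850, chr10:19000910-19015657) encodes A20, a ubiquitin-editing enzyme that shuts off signalling upstream of IKK. It was at 251 FPKM in WT against 283 FPKM in KO, a difference of 0.17 and a ratio of 1.13 (interval 1.08 to 1.18). Zfp36 (ENSMUSG00000044786, chr7:28376784-28380253) encodes tristetraprolin, which binds AU-rich elements in cytokine mRNAs such as that of Tnf and speeds their decay. It was at 2030 FPKM in WT against 2223 FPKM in KO, a difference of 0.13 and a ratio of 1.10 (interval 1.08 to 1.11). Zfp36 ranked 33rd of all genes in WT and 29th in KO, and its exons share 125 bases with an antisense transcript.

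Read against all genes, these are small differences. None of the 10 genes was past a 3-fold difference, whereas 27.3% of the 10297 genes that reached an FPKM of 1 in either library were, with 13.6% higher and 13.7% lower in KO. All 10 passed that filter on low values in both libraries. Low genes differ more between these libraries than abundant ones, so each gene was also set beside genes of like mean FPKM. Past 3-fold were 16.3% of genes at 10 to 50 FPKM (the class of Nfkb1 and Relb), 4.31% at 50 to 200 FPKM (Nfkb2, Rela, Rel and Bcl3) and 1.27% at 200 FPKM or more (Nfkbia, Nfkbiz, Tnfaip3 and Zfp36). An absence of 3-fold differences is therefore what most genes at these levels showed.

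At a 1.5-fold threshold, which was chosen after the values had been seen, 2 of the 10 genes were higher in KO (Relb and Bcl3) and 0 were lower. Of all genes compared, 32.0% were higher at that threshold, with 28.4% in the class of Relb, 15.0% in the class of Bcl3 and 7.36% at 200 FPKM or more, where none of the 4 was past it. All 10 differences lay between the 5th and 95th percentile of their class. Those of Nfkb2, Bcl3 and Nfkbiz were above the 75th percentile, which stood at 0.38 for genes at 50 to 200 FPKM and at 0.22 for genes at 200 FPKM or more. Relb lay just under it, at 0.62 against 0.68. In direction, 9 of the 10 had a higher value in KO against 51.3% of all genes, and their median difference was 0.17 against 0.03 over all genes. The median was 0.18 for the subunits and 0.17 for the inhibitors and feedback regulators, and a common shift of the deposited scaling moves all of these together.

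**Figure D2:**
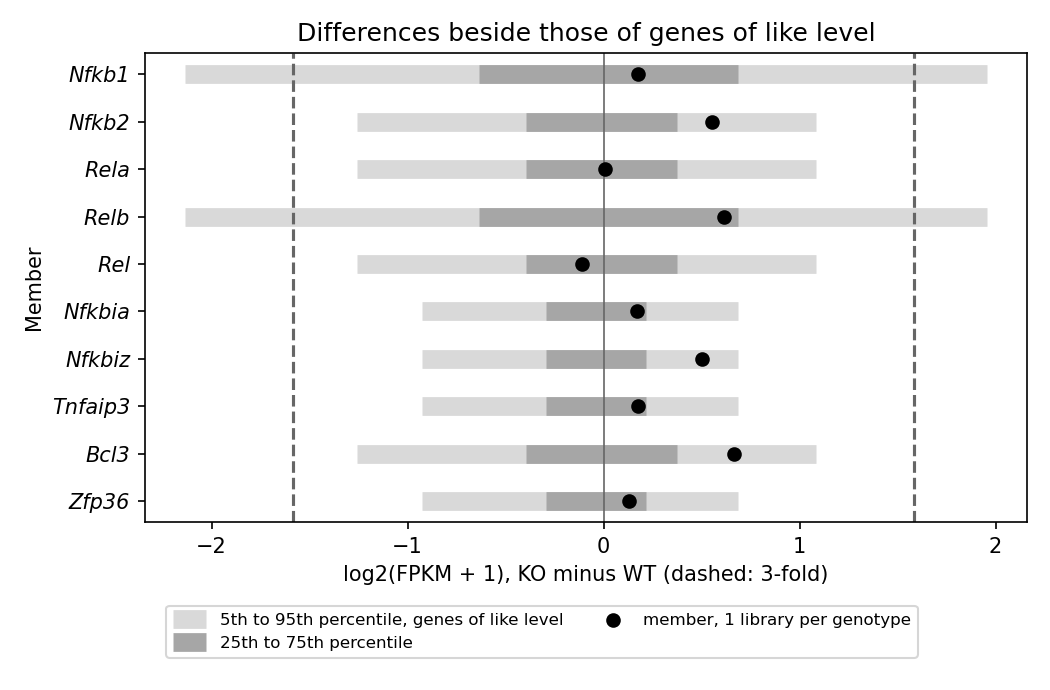
Difference of each gene (points, KO minus WT, log2(FPKM + 1), 1 library per genotype) over the range of genes of like mean FPKM, from the 5th to the 95th percentile in light grey and from the 25th to the 75th in dark grey. Every point lies inside its light band, between -0.11 and 0.67, and short of the dashed lines at a 3-fold difference. Those of Nfkb2, Bcl3 and Nfkbiz lie to the right of their dark bands.

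Since FPKM is scaled by length, the levels of the subunits can be compared with each other, and their make-up does not depend on how the libraries were scaled. Their summed FPKM was 315 in WT and 361 in KO. Nfkb2 made up 26.8% of this sum in WT and 34.4% in KO. Relb made up 3.70% in WT and 5.09% in KO. Rel went the other way, from 27.8% in WT to 22.5% in KO, as did Rela, from 28.0% to 24.5%, while Nfkb1 stayed at 13.7% and 13.5%. By level the order was Rela, Rel, Nfkb2, Nfkb1 and Relb in WT and Nfkb2, Rela, Rel, Nfkb1 and Relb in KO, and with 1 library of each genotype no spread shows which neighbours in this order differ. The ratio of Nfkb2 to Nfkb1 was 1.96 in WT and 2.55 in KO, and that of Relb to Rela was 0.132 in WT and 0.208 in KO. Nfkb2 and Relb kept nearly the same ratio to each other, at 7.26 in WT and 6.76 in KO.

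**Figure D3:**
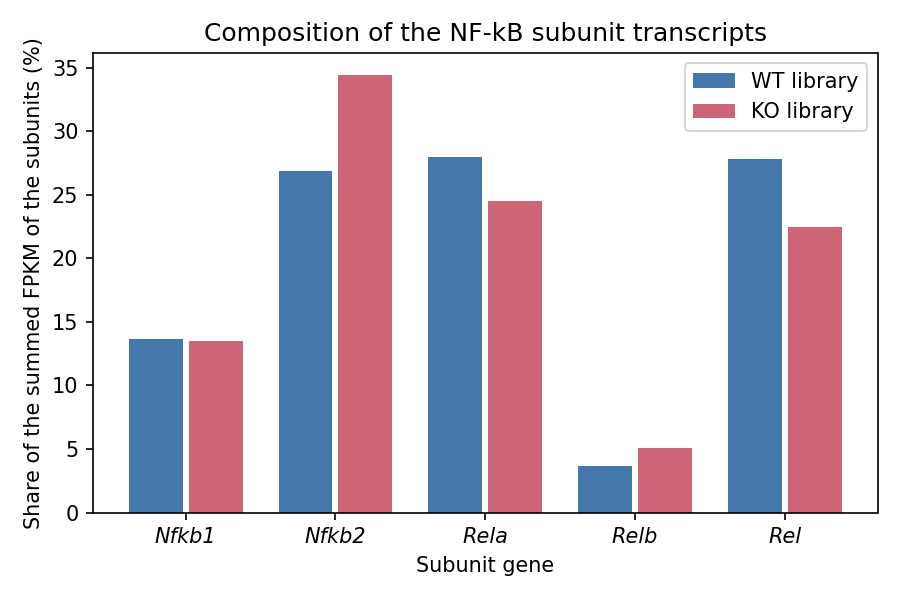
Share of each subunit in the summed FPKM of the 5 subunits, in percent, for the WT and the KO library. Nfkb2 goes from 26.8% in WT to 34.4% in KO, Rela and Rel have smaller shares in KO, and Nfkb1 is level.

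Among the inhibitors and feedback regulators, Zfp36 alone made up 65.9% of their sum in WT and 62.6% in KO. Relative to Nfkbia, Bcl3 stood at 0.360 in WT and 0.509 in KO, and Nfkbiz at 0.685 in WT and 0.861 in KO. Tnfaip3 held the same ratio to Nfkbia in both libraries, at 0.642 in WT and 0.643 in KO, and Zfp36 stood at 5.18 in WT and 5.04 in KO. The ratio of Nfkbia, the inhibitor, to Rela, the subunit it holds, was 4.45 in WT and 4.99 in KO.

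Other genes of the pathway were taken from 6 lists by role, 101 genes in all, of which 97 had a row and 92 were compared. Past 3-fold were 5 higher and 5 lower in KO (10.9% of the 92, against 27.3% of all genes compared), and 2 of the 5 higher ones were listed at 0 in WT. The share of all genes is not matched for level. It was 16.3% at 10 to 50 FPKM, 4.31% at 50 to 200 FPKM and 1.27% at 200 FPKM or more. The lists also hold genes with a mean below 10 FPKM, where genes differ more between these libraries. No share was worked out for that level, so these shares do not match the lists. The median difference of the 92 was 0.05, with 54 higher and 38 lower by any amount (51.3% of all genes were higher). Receptors were the list with the lowest median, at -0.33, with 8 of 10 lower in KO and none past 3-fold. Of all genes compared, 51.3% were higher in KO and 27.3% past 3-fold. Of the receptor genes with the highest levels, Cd14 and Tlr2 hardly differed and Tnfrsf1a was lower in KO (difference -0.21). Cd14, the co-receptor for lipopolysaccharide, was at 1060 FPKM in WT against 1095 FPKM in KO. Tlr2, a receptor for bacterial lipoproteins, was at 293 and 295 FPKM, and Tnfrsf1a, the main TNF receptor, at 123 and 106 FPKM.

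Adaptors and ubiquitin ligases had a median of -0.10, with 5 of 14 higher and 9 lower. Of all genes compared, 51.3% were higher and 27.3% past 3-fold. The share past 3-fold was 16.3% at 10 to 50 FPKM and 4.31% at 50 to 200 FPKM. This list also holds genes with a mean below 10 FPKM, for which no share was worked out. Traf1, an adaptor of TNF receptors and itself a known NF-kB target, was the one gene of this list past 3-fold on the scale of log2(FPKM + 1), at 21.6 FPKM in WT against 5.42 FPKM in KO (difference -1.82). Traf6, named after its value had been seen, was past 3-fold only in the ratio of its FPKM values, 3.16, and short of it on that scale. Birc3, which encodes the ubiquitin ligase cIAP2, was at 155 FPKM in WT against 144 FPKM in KO. Myd88, the adaptor shared by most toll-like receptors and the IL-1 receptor, was at 21.6 FPKM in WT against 54.6 FPKM in KO, a difference of 1.30 that is short of 3-fold, and Ube2n, a ubiquitin-conjugating enzyme, went from 38.4 to 24.0 FPKM. Among the IKK complex and the kinases that activate it, 10 of 15 were higher and 5 lower, with a median of 0.06. None of these kinase genes was past 3-fold, and the shares of all genes are again 51.3% higher and 27.3% past 3-fold. Map3k8, a kinase held by p105, was at 84.2 FPKM in WT against 68.4 FPKM in KO, Tab2, a partner of TAK1, at 69.7 and 72.8 FPKM, and Irak1, a kinase below Myd88, at 67.6 and 63.4 FPKM.

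The other IkB proteins were mixed in direction, with 1 of the 3 compared higher in KO and 2 lower. Nfkbid, the third nuclear IkB protein (IkBNS), was at 330 FPKM in WT against 260 FPKM in KO, a difference of -0.34. Nfkbib, which encodes the cytoplasmic IkBβ, was at 74.7 FPKM in WT against 62.9 FPKM in KO, and Nfkbie, which encodes IkBε, at 54.6 and 65.7 FPKM. None of the 3 compared was past 3-fold, and Nfkbil1 was listed at 0 in both libraries. Other negative regulators had a median of 0.18, with 13 of 19 higher against 51.3% of all genes and 3 of 19 past 3-fold against 27.3%. By level, the share past 3-fold was 16.3% at 10 to 50 FPKM, 4.31% at 50 to 200 FPKM and 1.27% at 200 FPKM or more. This list also holds genes with a mean below 10 FPKM, Commd1, Zc3h12d and Sigirr among them. No share was worked out for that level. Commd1 and Zc3h12d passed the filter only through KO and Sigirr passed it only through WT, which fixed their direction. The most abundant were Dusp1, a phosphatase of MAP kinases, at 1124 FPKM in WT against 1313 FPKM in KO, and Zfp36l1 and Zfp36l2, which are relatives of Zfp36 that also bind AU-rich elements. Zfp36l1 was at 347 and 432 FPKM and Zfp36l2 at 248 and 281 FPKM. Zfp36 and these relatives thus had higher values in KO, by 1.10- to 1.24-fold. Past 3-fold on the log2(FPKM + 1) scale in this list were Tnip1, a partner of A20, at 47.6 FPKM in WT against 13.1 FPKM in KO (difference -1.78), and Commd1 and Zc3h12d, both listed at 0 in WT and at 3.25 and 2.79 FPKM in KO. Sigirr, a receptor that dampens IL-1 and toll-like signals, was named after its value had been seen. It was at 2.18 FPKM in WT against 0.0699 FPKM in KO, past 3-fold in the FPKM ratio but just short of it on the log2(FPKM + 1) scale (difference -1.57). Tnfaip3 and its partner Tnip1 had differences of opposite sign.

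NF-kB target genes outside the 10 had a median difference of 0.21, with 25 of 36 higher and 11 lower (51.3% of all genes were higher). Past 3-fold were 3 upward and 5 downward (27.3% of all genes in either direction). That share is not matched for level. It was 16.3% at 10 to 50 FPKM, 4.31% at 50 to 200 FPKM and 1.27% at 200 FPKM or more. Some targets, Il6 and Lcn2 among them, had a mean below 10 FPKM, for which no share was worked out. Csf1 and Lcn2 passed the filter on low values only through KO and Saa3 passed it only through WT, which fixed their direction. The most abundant were chemokines. Cxcl2, which attracts neutrophils, was at 4416 FPKM in WT against 5549 FPKM in KO (difference 0.33), and Ccl3, which attracts monocytes and other leukocytes, at 1221 and 1833 FPKM (0.59). Cxcl1 was level, at 1269 and 1271 FPKM. Past 3-fold, Il6 was at 1.41 FPKM in WT against 10.9 FPKM in KO (2.30) and the chemokine Ccl5 at 106 FPKM in WT against 24.7 FPKM in KO (-2.06), and Traf1 and Tnip1, given above, are on this list too. Another 4 genes were past 3-fold and were named after their values had been seen. Bcl2l1, which encodes the survival protein Bcl-xL, went from 20.4 to 65.1 FPKM, and Lcn2, which encodes an iron-binding defence protein also stored in neutrophil granules, from 0.960 to 9.79 FPKM. Ptgs2, which encodes the prostaglandin enzyme COX-2, went from 45.1 to 12.9 FPKM, and the acute-phase gene Saa3 from 56.1 to 0.380 FPKM. Tnf, whose mRNA is bound by tristetraprolin, was also looked up after its value had been seen, and was at 678 FPKM in WT against 784 FPKM in KO.

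Immediate-early genes, which are switched on within minutes of many stimuli, tissue dissociation among them, were taken as a further list, since several NF-kB feedback genes are induced as fast. Of the 16, 10 were higher and 6 lower in KO, none past 3-fold, with a median of 0.03. Of all genes compared, 51.3% were higher and 27.3% past 3-fold. Past 3-fold were 4.31% of genes at 50 to 200 FPKM and 1.27% at 200 FPKM or more. Junb was at 1073 FPKM in WT against 1076 FPKM in KO, Egr1 at 722 and 904 FPKM, and Fosb at 614 and 628 FPKM. Levels of this list were high in both libraries. Its part in the levels of Nfkbia, Tnfaip3 and Zfp36 was not tested.

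**Figure D4:**
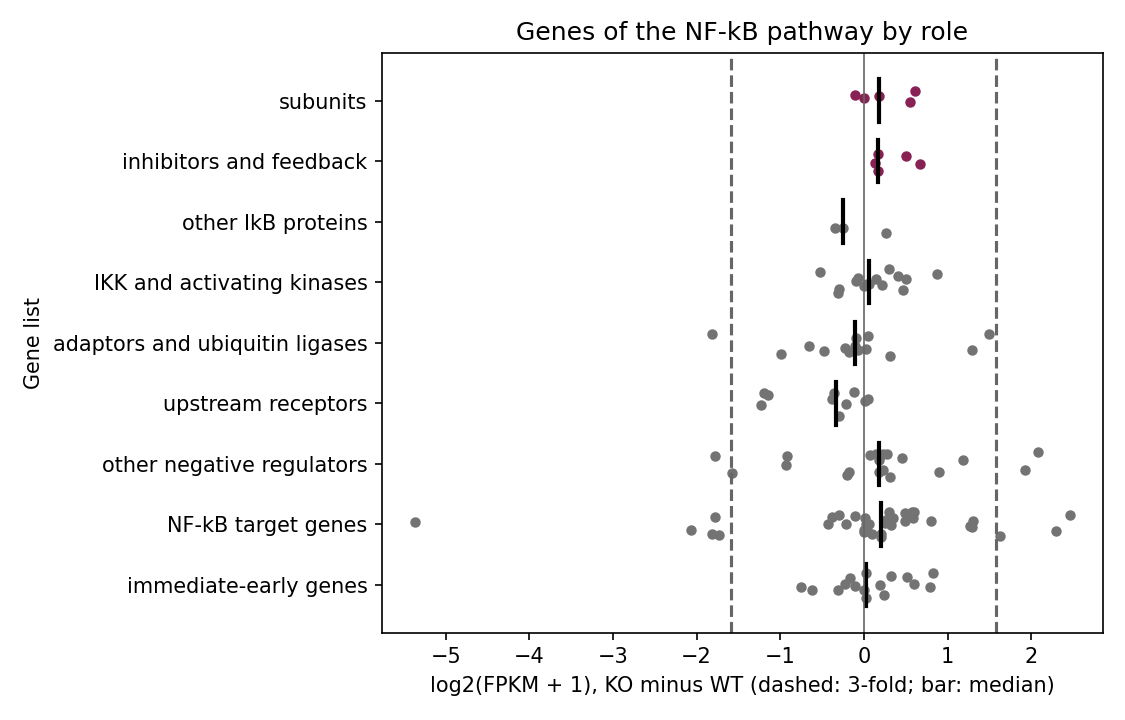
Difference of every compared gene (points, KO minus WT, log2(FPKM + 1)) in each list by role, with its median as a bar and 3-fold as dashed lines. The subunits and the inhibitors and feedback regulators (coloured) span -0.11 to 0.67, while the NF-kB target genes span -5.37 to 2.46.

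The cells were checked against marker genes of the types a sort of fat could hold. Macrophage markers summed to 15654 FPKM in WT against 15143 FPKM in KO, with all 12 that had a row above 0 in both libraries. Most of this sum came from C1qa, C1qb, C1qc and Lyz2. Of the 12, 5 were higher and 7 lower in KO, with a median of -0.01 (51.3% of all genes were higher). Adgre1, the gene of F4/80, was at 299 and 239 FPKM and Itgam, that of CD11b, at 127.9 and 127.7 FPKM. Of the less abundant markers, Mertk was at 38.0 and 88.1 FPKM, Cd163 at 130 and 214 FPKM and Fcgr1 at 49.3 and 21.9 FPKM. Neutrophil markers summed to 197 FPKM in WT against 572 FPKM in KO, and the 8 compared had higher values in KO (51.3% of all genes did). Past 3-fold upward were 3 of the 8, against 13.6% of all genes. Ngp, Mpo and Retnlg passed the filter on low values only through KO and so could not be lower. Most of both sums came from S100a8 and S100a9. S100a8, the mouse gene of MRP8, was at 73.3 FPKM in WT against 182 FPKM in KO and S100a9 at 63.4 and 301 FPKM. Cxcr2 was at 5.83 and 7.96 FPKM, Csf3r at 15.5 and 24.1 FPKM and Mmp9 at 38.3 and 48.9 FPKM. The granule genes Ngp and Mpo were listed at 0 in WT and at 2.61 and 2.29 FPKM in KO. The granule genes Mmp8, Camp, Ltf and Elane were listed at 0 in both. Neutrophils carry little F4/80, and the sources used here do not give the purity of the sort. The part of neutrophil transcripts in the higher values of Nfkbiz, Bcl3 and the other genes was not tested. Fibroblast markers summed to 49.2 FPKM in WT against 95.3 FPKM in KO, and the 6 compared had higher values in KO (51.3% of all genes did). Of these, Col1a2 and Pdgfra passed the filter only through KO. Markers of dendritic cells, which express Relb and Nfkb2, summed to 126 FPKM in WT against 149 FPKM in KO, most of it Cd209a at 122 and 131 FPKM. Of the 4 compared, Cd209a among them, Siglech was at 1.42 and 8.31 FPKM. Zbtb46 was listed at 0 in the WT library but was at 9.45 FPKM in KO, and Xcr1 was at 1.65 and 0.0588 FPKM. Zbtb46 passed the filter only through KO and Xcr1 only through WT, which fixed their direction. Clec9a and Itgae, which were not compared, were listed at 0 in both. The sums were 2.75 and 6.46 FPKM for B cell markers and 14.6 and 16.1 FPKM for endothelial markers. Cd79b was listed at 0 in the WT library but was at 5.52 FPKM in KO, and Cd79a was at 2.50 and 0.222 FPKM. Cd79b passed the filter only through KO and Cd79a only through WT, which fixed their direction. Pax5 was listed at 0 in both. Of the 6 T cell markers with a row, 5 were listed at 0 in both libraries and Cd4 was at 5.35 FPKM in WT against 2.07 FPKM in KO. Adipocyte markers summed to 149 and 121 FPKM, with Adipoq and Plin1 listed at 0 in both. Of the 5 compared, Pparg (36.4 and 7.78 FPKM) and Cidec (5.83 FPKM in WT, listed at 0 in KO) were past 3-fold downward, against 13.7% of all genes. Fabp4 (90.1 and 91.4 FPKM) and Lipe (16.8 and 20.1 FPKM) had higher values in KO. Lep was listed at 0 in WT and was at 1.60 FPKM in KO. Cidec passed the filter only through WT and Lep only through KO, which fixed their direction. The part of these cell types in the result was not tested.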

How the data were processed

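Poly(A) RNA of sorted ATM was sequenced in 1 library per genotype. The authors deposited FPKM values per gene. Per the submitters' processing notes CASAVA 1.8.2, TopHat2 2.0.9, Cufflinks 2.2.1 and build mm9 were used; annotation, filters and use of strand are not given in the sources used here. The mutant column was taken as KO, the only library that was not WT. Of 20749 rows, 401 full repeats were dropped and 18 rows with other values for an identifier were summed, leaving 20330 identifiers, 98.5% with a symbol in GENCODE M21. Gene coordinates are those of GRCm38 and not of mm9. Expression was compared as log2(FPKM + 1) for genes that reached an FPKM of 1 in either library. A pseudocount of 1 understates the change of low genes. No count test was used, since FPKM are not counts. Fragments were estimated from the smallest recurring FPKM x kb (0.171 in WT, 0.134 in KO). The 3-fold call was run on simulated data with known folds and little noise. That checks the calculation and does not measure false calls in these libraries. Named were the 10 genes, Hif1a and, of each list, the 3 highest by mean FPKM, up to 4 with the largest difference past 3-fold among genes that reached an FPKM of 1 in both libraries, and up to 2 listed at 0 in one library. Members and lists were chosen with earlier results of these data known. Pseudocount, filter, scaling, fold threshold and repeated rows were varied. Python 3.11.15, pandas 2.3.3, NumPy 2.4.6 and SciPy 1.17.1 were used.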

Additional observations from a re-analysis of the deposited data

How the results depend on the processing

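Across 10 alternatives, 240 values were recomputed. The counts among them have no sign. No median or difference took the opposite sign, though the median of all genes was 0 with no filter. A count was taken as moved past 1.5 times the reported one, and a log2 difference or median when the fold it stands for moved by 1.5 times, by which 9 moved, all of them counts. Of the 240, 132 were exactly equal, many under a setting that could not change them. For the 10 genes no difference changed sign under any alternative run, and their median was 0.17 as reported, 0.18 with a pseudocount of 0.1 or 0.01, 0.19 with equal upper quartiles and 0.22 with equal FPKM sums, where the median of all genes was 0.07 in place of 0.03. The median of the IKK list ranged from 0.06 to 0.14, that of the other IkB proteins from -0.25 to -0.12 and that of the immediate-early genes from 0.03 to 0.07. Past 3-fold in KO were 1402 genes higher and 1413 lower as reported, 429 and 447 where both libraries had to reach an FPKM of 1, and 598 and 646 with a mean FPKM of at least 5, since fewer genes enter. Past 2-fold were 2380 higher and 2314 lower. At 1.5-fold, a threshold added after seeing the data, there were 3293 higher and 3110 lower, and 2 of the 10 genes were higher in place of 0. No paired analysis was possible because there is only 1 library of each genotype, and no library could be left out. Relb has the fewest fragments of the 10 genes and so the least certain ratio. Without replicates, a difference between genotypes cannot be told apart from one between animals, sorts or libraries.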

Other observations

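Some receptors that feed the non-canonical route had lower values in KO while its subunits had higher ones, genes picked out after their values had been seen. Lower values were not particular to them, since 8 of the 10 receptors compared were lower (51.3% of all genes were higher). The receptor difference furthest from 0 was that of Il1rap, a subunit of the IL-1 receptor, at 7.34 FPKM in WT against 2.55 FPKM in KO (-1.23). Cd40, the receptor for CD40 ligand, was at 48.8 FPKM in WT against 20.8 FPKM in KO, a difference of -1.19 on the scale of log2(FPKM + 1). Ltbr, the lymphotoxin-β receptor, was at 24.2 FPKM in WT against 10.4 FPKM in KO, a difference of -1.15. Tnfrsf13c, the BAFF receptor, was listed at 0 in both. Tnfrsf11a, which encodes RANK, was at 21.9 FPKM in WT against 16.5 FPKM in KO. Map3k14, the kinase NIK that acts on p100, was at 9.91 and 11.7 FPKM, while Nfkb2 and Relb had higher values in KO by 0.55 and 0.62. None of these genes was past 3-fold on this scale.

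A second pattern seen only on inspection concerns the A20 complex and the adaptors. Tnip1 was lower in KO by more than 3-fold, while Tnip2, a related partner of A20, was at 29.2 FPKM in WT against 55.5 FPKM in KO, and Tnfaip3 differed by 0.17. Traf6, the ubiquitin ligase below Myd88, was at 5.42 FPKM in WT against 17.1 FPKM in KO, and Traf2, used by TNF receptors, at 7.15 and 3.08 FPKM. With 1 library of each genotype these values have no test.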
